A study of Mus musculus with 20 samples.

Results

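The mitochondrially encoded genes of the mouse were followed in brain tissue after stroke. They were taken as every gene of the count tables whose symbol in the GRCm38 annotation starts with mt-, which gave 37 genes (13 protein-coding, 2 rRNA and 22 tRNA genes) of 46078. All 20 libraries came from 18-month-old wild-type male mice of the C57BL/6J strain, and every mouse, controls included, had undergone DH stroke, in which occlusion of the distal middle cerebral artery is combined with hypoxia. From 1 week after stroke, mice were injected subcutaneously 3 times per week for 6 weeks with sterile PBS (vehicle) or with 4 g/kg HPBCD, a cyclic sugar that takes up lipids such as cholesterol. Tissue was collected 7 weeks after stroke from the peri-infarct region, dissected next to the infarct after the infarct had been removed, and from the corresponding region of the contralateral hemisphere. The 4 groups were vehicle contralateral, vehicle peri-infarct, HPBCD contralateral and HPBCD peri-infarct, with 5 libraries in each.

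Mammalian mitochondria carry a small circular chromosome that is transcribed from both strands into long precursors, from which the tRNAs are cut out like punctuation marks to release the rRNAs and mRNAs between them. The proteins encoded there are all subunits of the oxidative phosphorylation complexes (NADH dehydrogenase or complex I, the cytochrome bc1 complex or complex III, cytochrome c oxidase or complex IV, and ATP synthase or complex V), which also hold many subunits encoded in the nucleus. Brain tissue has a high oxidative demand, and neurons are rich in mitochondria. The mitochondrial mRNAs of mammals carry short poly(A) tails, so they enter libraries made from polyadenylated RNA, whereas the mature tRNAs are too short to be represented well.

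Gene counts per library were 14445021 to 22171627. The library of HPBCD contralateral replicate 4 stood apart, with 9.5% of its read pairs assigned to no feature and 8.03% ambiguous, against at most 5.86% and 4.16% in the other 19 libraries, and the share and the fitted values of the members were also computed without it. Vehicle contralateral replicate 1 stood apart in the summed level of 6 striatum markers, at 2060 CPM against 123.5 to 192.2 CPM in the other libraries of its group, and HPBCD contralateral replicate 3 in that of 5 choroid plexus markers, at 636.5 against 1.748 to 6.923 CPM. HPBCD peri-infarct replicate 3 also stood apart in the choroid plexus markers, at 682.2 against 26.83 to 205.9 CPM. In 5 ependyma markers, vehicle contralateral replicate 3 was at 40.64 against 6.142 to 13.52 CPM. HPBCD contralateral replicate 3 was at 12.2 against 7.187 to 8.32 CPM in these, and at 121.8 against 60.71 to 66.3 CPM in 6 fibroblast markers. The treatment of a library is known here from its label alone. Of 32 tested genes that the study's text lists with a direction between treatments in peri-infarct tissue, 0 had that sign and 18 were called with the opposite sign in the libraries as labelled, so the treatment named for a group is that of the labels in every comparison below, between regions, within animals and in the interaction as well as between treatments. The summed level of 13 neuron markers was 12060 to 14120 CPM in vehicle contralateral and 8039 to 10710 CPM in vehicle peri-infarct libraries, and 14070 to 15070 against 4223 to 8016 CPM in the HPBCD groups, with no marker at 0 in every library of a group. CPM are counts per 1000000 gene counts of a library, scaled with TMM factors. In bulk tissue, fewer cells rich in mitochondria and less mitochondrial RNA per cell cannot be told apart, and the part of cell makeup in the results below was not tested.

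Of the 13 protein-coding members, 8 were well counted and 5 were close to 0. The well counted genes were mt-Nd1 (chrM:2751-3707), mt-Nd2 (chrM:3914-4951), mt-Nd3 (chrM:9459-9806), mt-Nd4 (chrM:10167-11544), mt-Nd5 (chrM:11742-13565) and mt-Nd6 (chrM:13552-14070) of complex I, mt-Cytb (chrM:14145-15288) of complex III and mt-Co1 (chrM:5328-6872) of complex IV. Each is a single exon on the plus strand of GRCm38, except mt-Nd6, which lies on the minus strand and overlaps the end of mt-Nd5 by 14 bases. The strand option of the counting is not given in the sources used here, so the counts of mt-Nd6 may include RNA of the other strand. They held 3249 to 944819 counts per library. The 5 others were mt-Co2 (chrM:7013-7696) and mt-Co3 (chrM:8607-9390) of complex IV, mt-Atp8 (chrM:7766-7969) and mt-Atp6 (chrM:7927-8607) of complex V, and mt-Nd4l (chrM:9877-10173) of complex I. They held 0 to 87 counts per library each. Both members that encode ATP synthase subunits are among them, so complex V could not be followed through its mitochondrial genes.

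The genes near 0 share their sequence with annotated nuclear copies of mitochondrial DNA. On the minus strand of chromosome 1, 7 unprocessed pseudogenes lie within 4663 bases (chr1:24611535-24616197) in the order of a 4662-base part of the mitochondrial chromosome (chrM:6381-11042), and they differ from the members by 7 mismatches in 4149 aligned bases. The sources name STAR as the aligner, and the tables keep read pairs that align to more than 1 place apart from the gene counts. Of all 75-base stretches, the length of a read, the share found identically in another annotated transcript was 99.5% for mt-Co2, 99.5% for mt-Atp6, 99.9% for mt-Co3 and 98.7% for mt-Nd4l. It was 97.8% for mt-Nd3, 61.5% for mt-Nd4, 39.8% for mt-Co1, 5.71% for mt-Nd2 and 1.66% for mt-Nd5, and no stretch was shared for mt-Nd1, mt-Nd6, mt-Cytb, mt-Rnr1 or mt-Rnr2. The levels of the partly shared genes are therefore lower bounds, whereas a comparison of a gene between groups uses the same countable stretches throughout.

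Sequences at the start of nuclear copies are shown. The copy Gm29216 of mt-Co1 lies at the edge of the run on chromosome 1, and Gm28438 of mt-Nd3 lies inside it. The lines give 60 bases of mt-Co1 (chrM:6381-6440, plus strand) and of its copy Gm29216 (chr1:24616138-24616197, minus strand), then 60 bases of mt-Nd3 (chrM:9459-9518, plus strand) and of its copy Gm28438 (chr1:24613060-24613119, minus strand), all from the GENCODE M21 transcripts of GRCm38. Capitals mark the bases that differ.
mt-Co1: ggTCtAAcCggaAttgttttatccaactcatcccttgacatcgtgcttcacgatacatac
Gm29216: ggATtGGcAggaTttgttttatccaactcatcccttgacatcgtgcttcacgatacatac
mt-Nd3: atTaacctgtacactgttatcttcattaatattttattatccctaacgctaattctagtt
Gm28438: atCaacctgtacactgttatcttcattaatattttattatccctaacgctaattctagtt
Counted from base 1 of the gene, with the member's base first, the 6 differences of Gm29216 are T1056A, C1057T, A1059G, A1060G, C1062A and A1066T, all within the opening bases of the copy, and the rest of its 492 bases matched mt-Co1. The single difference of Gm28438 is T3C. The copies Gm28661 of mt-Co2, Gm10925 of mt-Atp6, Gm28437 of mt-Co3, Gm10222 of mt-Nd4l and Gm28439 of mt-Nd4 had no mismatch over their 681, 678, 783, 294 and 876 bases.

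The copies held more counts than the 4 matching genes near 0. Pairs that align to more than 1 place are in neither count, and where the reads of these 4 genes went was not tested. Gm28661 held 766 to 6441 counts per library against 0 to 56 for mt-Co2, and Gm28437 held 2019 to 7248 against 0 to 87 for mt-Co3. Gm10925 held 4355 to 17909 counts against 1 to 66 for mt-Atp6, and Gm10222 held 80 to 1030 against 0 to 13 for mt-Nd4l. From the counts alone, transcripts of the copies and of the members with the same sequence cannot be told apart.

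The gene mt-Atp8 is the exception, with at most 2 counts in any library and no annotated nuclear copy. It is printed whole (chrM:7766-7969, plus strand), with the 43 bases that overlap mt-Atp6 in capitals.
mt-Atp8: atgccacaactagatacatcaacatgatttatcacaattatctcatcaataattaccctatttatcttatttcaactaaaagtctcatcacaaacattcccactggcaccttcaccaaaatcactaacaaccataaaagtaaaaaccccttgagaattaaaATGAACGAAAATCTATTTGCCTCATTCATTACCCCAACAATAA
The annotated copies of its neighbours mt-Co2 and mt-Atp6 are 233 bases apart on chromosome 1 (chr1:24614652-24614884), and the matching parts of mt-Co2 and mt-Atp6 are also 233 bases apart on the mitochondrial chromosome (chrM:7694-7926). Whether the stretch between the copies holds the sequence of mt-Atp8 was not tested, since no genome sequence was used.

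**Figure D1:**
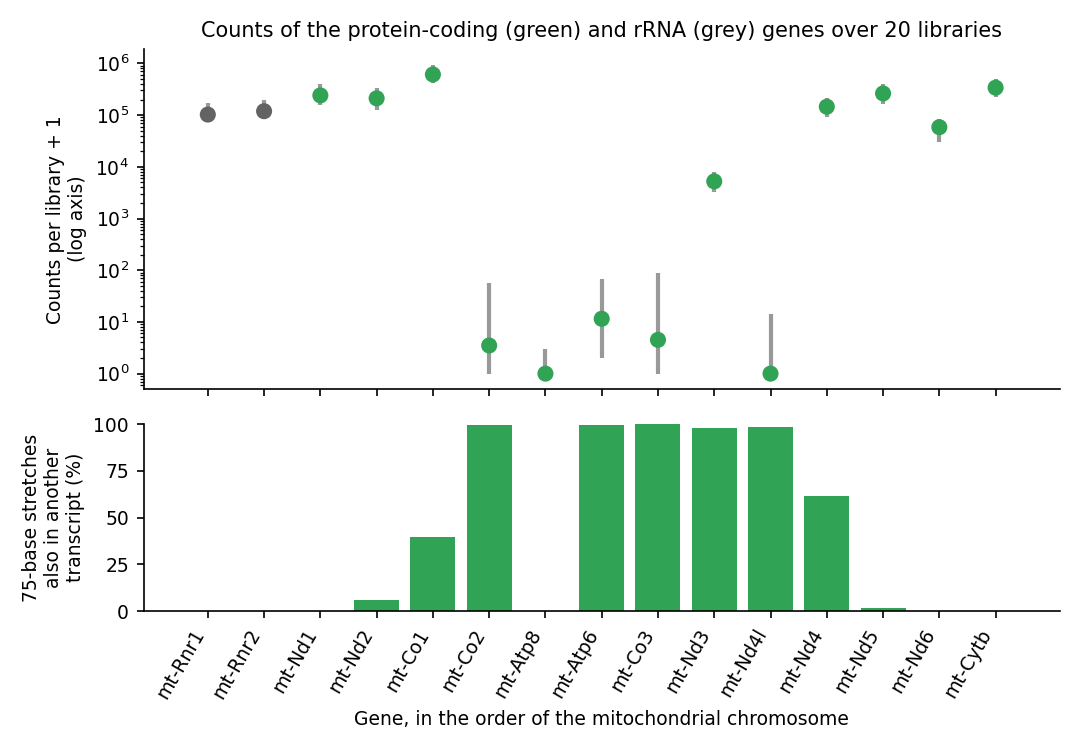
Counts per library plus 1 on a log axis (upper panel; points are medians and lines span the lowest to the highest of 20 libraries) and the percent of 75-base stretches found identically in another annotated transcript (lower panel), for the protein-coding and rRNA genes in chromosome order. Of the genes near 0, all but mt-Atp8 are shared over 98.7% to 99.9% of their stretches and mt-Nd3 is counted despite 97.8%.

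Among the genes that could be counted, counts per length followed an order that was stable at the top. Lengths are those of the whole gene, so the levels of mt-Co1, mt-Nd4 and the other partly shared genes are lower bounds. Their places, and that of mt-Nd6 with the strand option not given, need not be those of the transcripts. Mean CPM per kilobase over the 20 libraries was 22573 for mt-Co1, the catalytic core subunit of cytochrome c oxidase, then 16444 for mt-Cytb, the cytochrome b of complex III, 14314 for mt-Nd1, 11399 for mt-Nd2 and 7977 for mt-Nd5. Each of the top 4 exceeded the next gene in this order in 20 of 20 libraries, and mt-Nd5 exceeded the next in 18 of 20. The next were mt-Rnr1 at 6272, mt-Nd6 at 6110 and mt-Nd4 at 5789 CPM per kilobase, which did not keep an order, as mt-Rnr1 exceeded mt-Nd6 in 7 of 20 libraries and mt-Nd6 exceeded mt-Nd4 in 13 of 20. The level of mt-Rnr2 was 4346 and that of mt-Nd3 was 814 CPM per kilobase, the latter over a gene of which nearly all stretches are shared.

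The mitochondrially encoded genes took a large share of all gene counts, and that share was on average lower in peri-infarct than in contralateral tissue under both treatments. It was 10.7, 10.9, 12.9, 9.89 and 6.98 percent in vehicle peri-infarct replicates 1 to 5, and 11.7, 15.7, 15.2, 10.5 and 12.4 percent in vehicle contralateral replicates 1 to 5. The means were 10.3 ± 2.14% against 13.1 ± 2.25% (SD, n = 5). The groups overlapped, with 2 contralateral libraries above every peri-infarct library and 2 peri-infarct libraries below every contralateral library. In the HPBCD groups the share was 8.11, 8.41, 10.2, 13.9 and 10.3 percent in peri-infarct and 15.3, 10.6, 13.6, 12.2 and 15.0 percent in contralateral replicates, with means of 10.2 ± 2.30% against 13.3 ± 1.96% (SD, n = 5). These groups overlapped too, since peri-infarct replicate 4 lay among the contralateral libraries. The share is a sum over chosen genes and is described without a test.

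The names of the deposited tables carry an identifier that is common to both regions of a replicate number within a treatment, and it was read as the animal. Within animals, the share was lower in peri-infarct tissue in 5 of 5 vehicle animals, with differences of -5.47 to -0.60 percentage points, and in 4 of 5 HPBCD animals. The exception was HPBCD animal 4, whose peri-infarct share was higher by 1.67 points. Its contralateral library is the one that stands apart in read assignment. Without HPBCD contralateral replicate 4 the mean difference between HPBCD regions was -3.43 points, against -3.16 with it, and without HPBCD peri-infarct replicate 4 it was -4.09. Without HPBCD contralateral replicate 3 it was -3.10, and the vehicle difference was -3.18 points without vehicle contralateral replicate 1, against -2.82 with it.

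Between treatments the shares were close. The difference of the means, HPBCD minus vehicle, was -0.10 percentage points in peri-infarct and 0.23 points in contralateral tissue, both far smaller than the SDs of the groups, and leaving out single libraries moved them between -1.03 and 0.55 and between -0.42 and 0.92 points. Of the counts of the members, 89.1% came from protein-coding, 10.8% from rRNA and 0.107% from tRNA genes.

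**Figure D2:**
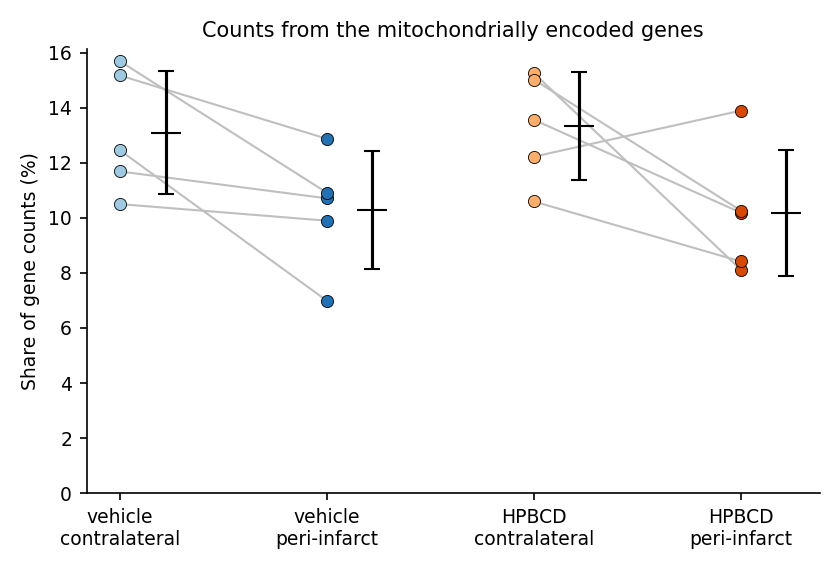
Share of gene counts from the 37 mitochondrially encoded genes in each library by group (points), with the mean and SD of 5 libraries beside them and grey lines joining libraries of the same animal. All lines fall from contralateral to peri-infarct except that of HPBCD animal 4, which goes from 12.2% to 13.9%.

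The share of read pairs that did not align uniquely moved with it. Peri-infarct against contralateral, this was 19.5 ± 1.81% against 21.8 ± 1.81% of all pairs under vehicle and 20.2 ± 2.31% against 22.4 ± 1.84% under HPBCD (SD, n = 5), and its difference between regions had the sign of the difference in mitochondrial share in every animal. With all read pairs as the denominator, the mitochondrial share differed between regions by -1.72 points in vehicle and -1.70 points in HPBCD. Members that share no 75-base stretch with another annotated transcript took 4.21 ± 0.851% against 5.36 ± 0.912% of gene counts in vehicle and 4.17 ± 0.915% against 5.55 ± 0.866% in HPBCD (SD, n = 5), so the lower peri-infarct mean was also present in genes with no such shared stretch. That last set, like the sum with the copies added, was chosen after values were seen.

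**Figure D3:**
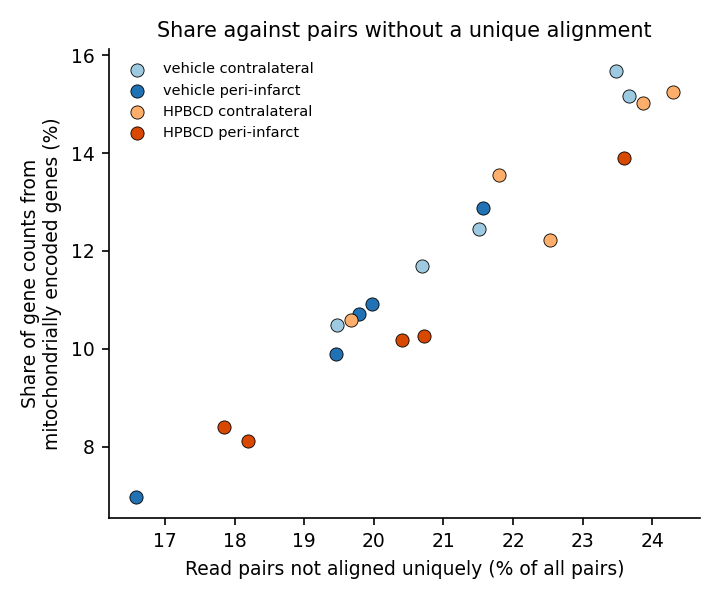
Share of gene counts from mitochondrially encoded genes against the percent of all read pairs without a unique alignment, 1 point per library, coloured by group. The library lowest on both axes, vehicle peri-infarct replicate 5, lies at 16.6% and 6.98%, and the library farthest to the right, HPBCD contralateral replicate 1, lies at 24.3% and 15.3%.

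The comparison of regions in vehicle animals asks what the tissue next to a chronic infarct expresses. All 10 well counted rRNA and protein-coding members had negative log2 fold changes, from -0.58 to -0.34, and 1 of them passed the test. Over all genes, 20.2% of 15801 tested were called in this comparison and 9.7% were called lower (5.26% to 11.2% when 1 library was left out, the lowest without vehicle contralateral replicate 5), beside 1 of the 15 members that passed the filter on low counts. The median of the 8 well counted protein-coding members was -0.39, and that of all genes was 0.01.

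In vehicle, the member called was mt-Rnr1 (chrM:70-1024, plus strand), the 12S rRNA of the small mitochondrial ribosomal subunit. Its level was 5031, 5029, 5004, 4048 and 3447 CPM in peri-infarct replicates 1 to 5, and 5358, 7843, 7765, 5613 and 6834 CPM in contralateral replicates 1 to 5. Every peri-infarct library lay below every contralateral library, as did 6.7% of all genes tested. It fell by 32.9% (log2 fold change -0.58, SE 0.15, adjusted p = 0.0208). The call was lost without vehicle peri-infarct replicate 4 (adjusted p = 0.0546), contralateral replicate 2 (adjusted p = 0.0514) or contralateral replicate 3 (adjusted p = 0.0541). Without contralateral replicate 1, the library with the high striatum markers, 3 members were called, mt-Rnr1, mt-Rnr2 and mt-Tp. In that fit 8.1% of all genes were called lower. The 16S rRNA of the large subunit, mt-Rnr2 (chrM:1094-2675, plus strand), was at 5550 ± 984 against 7518 ± 1414 CPM (SD, n = 5) and was not called (log2 fold change -0.45, adjusted p = 0.0715).

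None of the 8 protein-coding members was called in vehicle, with adjusted p from 0.0977 to 0.321 and 4 of them at an unadjusted p under 0.05. The cytochrome c oxidase subunit mt-Co1 was at 31039, 31387, 38920, 28703 and 20149 CPM in peri-infarct and 35141, 50315, 48782, 32213 and 39828 CPM in contralateral replicates 1 to 5. Peri-infarct replicate 3 was above 2 of the contralateral libraries, and the log2 fold change was -0.47 (SE 0.19, adjusted p = 0.102). Among complex I genes, the values were -0.50 for mt-Nd1, -0.48 for mt-Nd2, -0.43 for mt-Nd3, -0.34 for mt-Nd4, -0.35 for mt-Nd5 and -0.34 for mt-Nd6, with SE of 0.19 to 0.23. For mt-Cytb it was -0.34 (SE 0.19, adjusted p = 0.220). Without vehicle peri-infarct replicate 5 the values were nearer 0, at -0.20 for mt-Nd4, -0.22 for mt-Nd5, -0.18 for mt-Nd6 and -0.22 for mt-Cytb. Without vehicle peri-infarct replicate 3, mt-Co1 (-0.57, adjusted p = 0.0497) and mt-Nd3 (-0.59, adjusted p = 0.0384) were called. DESeq2 called 6 members and limma voom 9 in vehicle, all lower, beside 10.3% and 14.9% of all genes called lower. With the animal as a block, 5 members were called in vehicle, namely mt-Rnr1, mt-Nd1, mt-Nd2, mt-Nd3 and mt-Tp, all lower, beside 9.1% of all genes called lower in the same fit.

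In the HPBCD groups, 6 members fell in peri-infarct tissue, both rRNAs, 3 protein-coding genes and 1 tRNA, and none rose. Of all 16047 genes tested, 54.6% were called and 24.3% were called lower, beside 6 of the 15 members that passed the filter. In no member were the HPBCD regions apart in CPM, whereas they were in 42.5% of all genes tested. The 10 well counted rRNA and protein-coding members lay between -0.89 and -0.34. The median of the protein-coding members was -0.45, beside 0.03 for all genes.

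The rRNAs had the lowest values of these. The level of mt-Rnr1 was 3124, 4008, 4170, 5976 and 5085 CPM in HPBCD peri-infarct and 8493, 5125, 7327, 10653 and 9868 CPM in HPBCD contralateral replicates 1 to 5. Contralateral replicate 2 lay within the peri-infarct range, and contralateral replicate 4, the library that stands apart, was the highest. It fell by 46.1% (log2 fold change -0.89, SE 0.22, adjusted p = 0.00355). For mt-Rnr2 the levels were 3861, 5299, 5105, 6779 and 5568 CPM against 9625, 5928, 8321, 11587 and 10099 CPM, with the same order of libraries at the ends. It fell by 41.5% (log2 fold change -0.77, SE 0.19, adjusted p = 0.00436). Both calls were kept in each of the 10 fits that left out 1 library, with log2 fold changes of -1.03 to -0.79 and -0.90 to -0.68. The values nearest 0 for both rRNAs came without the library that stands apart, and without it the same 6 members were called.

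The 3 protein-coding members called are the first downstream of the rRNAs on the plus strand. The membrane-arm subunit mt-Nd1 was at 8238, 8428, 9934, 13862 and 10673 CPM in HPBCD peri-infarct and 20244, 12421, 15707, 14497 and 18279 CPM in HPBCD contralateral replicates. Peri-infarct replicate 4 lay above contralateral replicate 2, and otherwise the groups were apart. It fell by 37.0% (log2 fold change -0.67, SE 0.18, adjusted p = 0.00728). The level of mt-Nd2, another membrane-arm subunit of complex I, was 7140, 8064, 9214, 13659 and 10051 CPM against 17074, 11340, 14669, 13208 and 16837 CPM, where peri-infarct replicate 4 lay above contralateral replicates 2 and 4. It fell by 34.2% (log2 fold change -0.60, SE 0.19, adjusted p = 0.0153). For mt-Co1 the levels were 22622, 22028, 26038, 38589 and 27042 CPM against 47158, 32039, 41506, 38598 and 45414 CPM, and peri-infarct replicate 4 was again within the contralateral range. It fell by 33.5% (log2 fold change -0.59, SE 0.19, adjusted p = 0.0169). These 3 calls were also kept in each of the 10 fits without 1 library.

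The other protein-coding members were not called in HPBCD. The membrane-arm subunit mt-Nd5 was at 9783, 10656, 12458, 17786 and 11842 CPM in peri-infarct and 19558, 13767, 18341, 15206 and 18218 CPM in contralateral replicates, with peri-infarct replicate 4 inside the contralateral range (log2 fold change -0.45, SE 0.18, adjusted p = 0.05002, just past the threshold). The log2 fold change was -0.46 for mt-Nd6 (adjusted p = 0.0630), the complex I subunit read from the other strand. It was -0.38 for mt-Nd4 (adjusted p = 0.0906), -0.34 for mt-Nd3 (adjusted p = 0.0958) and -0.36 for mt-Cytb (adjusted p = 0.119). The level of mt-Cytb was 13293, 12779, 16150, 23434 and 16188 CPM against 24898, 16859, 20931, 18772 and 23311 CPM, and peri-infarct replicate 4 exceeded 4 of the contralateral libraries. Without HPBCD peri-infarct replicate 4, 12 members were called, among them all 8 well counted protein-coding genes and the sparse mt-Tm, beside 23.5% of all genes called lower in that fit. Leaving out HPBCD peri-infarct replicate 4 moved mt-Cytb to -0.53, and 9 members were called without HPBCD contralateral replicate 2. In the 10 fits without 1 library, 22.1% to 26.9% of all genes were called lower. Markers of several cell types moved with the members. Of the 13 neuron markers, 6 fell in vehicle and 12 fell in HPBCD peri-infarct tissue. All 10 markers of reactive astrocytes and all 11 of microglia and macrophages rose in both treatments. The summed level of the microglia and macrophage markers was 392.9 to 536.9 CPM in vehicle contralateral and 816.9 to 2562 CPM in vehicle peri-infarct libraries, and 410.9 to 490.2 against 1366 to 3192 CPM in the HPBCD groups. That of the reactive astrocyte markers was 216.4 to 393.2 against 749.6 to 3770 CPM and 181.8 to 252.7 against 3287 to 6693 CPM. In HPBCD, all 6 markers each of oligodendrocytes, fibroblasts and striatum and all 5 of ependyma rose as well. In vehicle 0, 2, 0 and 1 of these were called, and the interaction called 2, 4, 0 and 4 of them. Of the neuron markers, 8 were called lower in HPBCD than in vehicle peri-infarct tissue as labelled, and 7 in the interaction. Of the reactive astrocyte markers, 5 and 4 were called higher in these, and of the microglia and macrophage markers 0 and 0. Over all genes, 1662 of 15801 in vehicle and 4859 of 16047 in HPBCD were called higher between regions. Between treatments in peri-infarct tissue 9.0% were called lower, and the interaction called 9.41%.

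**Figure D4:**
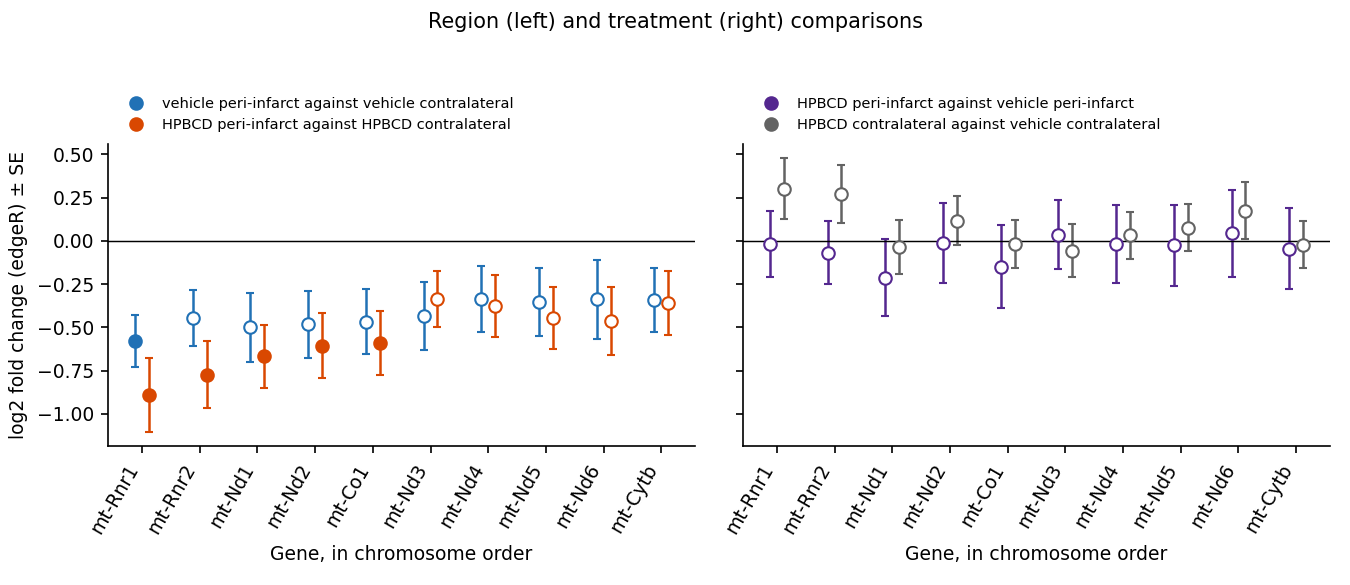
edgeR log2 fold changes with SE of the 10 well counted rRNA and protein-coding genes in chromosome order, for the region comparisons (left) and the treatment comparisons (right). Filled points passed an adjusted p of 0.05 and open points did not, and all points on the left are below 0 while those on the right lie between -0.21 and 0.30.

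Of the 22 tRNA genes, only mt-Tp (tRNA proline, chrM:15356-15422, minus strand) was well counted, with 1557 to 3546 counts per library. Among the others, 11 had at most 3 counts in every library, and 5 of these 11 had no count in any library. The level of mt-Tp was 84.0, 94.2, 95.8, 119 and 97.3 CPM in HPBCD peri-infarct and 177, 120.4, 144, 118 and 155 CPM in HPBCD contralateral replicates. Only peri-infarct replicate 4 and contralateral replicate 4 lay in the range of the other group. It fell by 31.4% (log2 fold change -0.54, SE 0.13, adjusted p = 0.00298). In vehicle it was at 104 ± 16.2 against 139 ± 30.4 CPM (SD, n = 5) and was not called (log2 fold change -0.43, adjusted p = 0.0724). A library of polyadenylated RNA does not measure mature tRNA, and the strand option of the counting is not given in the sources used here, so these counts may include RNA of the other strand. The next tRNA genes by mean count that passed the filter, mt-Ta, mt-Tt, mt-Tm and mt-Tv, were at about 1 CPM or less in every group and were not called in any comparison in which they were tested.

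The balance among the members also differed between regions. This pattern was noticed in the values and is described without a test. The ratio of mt-Cytb counts to mt-Nd1 counts, which needs no scaling of libraries and concerns genes with no shared stretch, was 1.41, 1.32, 1.45, 1.51 and 1.45 in vehicle peri-infarct and 1.34, 1.26, 1.22, 1.34 and 1.26 in vehicle contralateral replicates 1 to 5. It was 1.61, 1.52, 1.63, 1.69 and 1.52 in HPBCD peri-infarct and 1.23, 1.36, 1.33, 1.29 and 1.28 in HPBCD contralateral replicates. The means were 1.43 ± 0.0704 against 1.28 ± 0.0527 and 1.59 ± 0.0754 against 1.30 ± 0.0497 (SD, n = 5). Vehicle peri-infarct replicate 2 lay below vehicle contralateral replicates 1 and 4, the HPBCD regions did not overlap, and all HPBCD peri-infarct libraries lay above all vehicle peri-infarct libraries. Of the counts of the 8 well counted protein-coding genes, mt-Nd1 took 11.9% in peri-infarct against 13.1% in contralateral libraries under HPBCD, and mt-Nd2 took 11.2% against 11.9%. In contrast, mt-Nd4 took 8.11% against 7.38% and mt-Cytb took 1.95 percentage points more. Each of these differed without overlap, and the other 4 well counted genes overlapped. In vehicle all 8 overlapped between regions, with mt-Nd1 at 12.9% against 13.6% and mt-Cytb at 18.5% against 17.5%. Between treatments, HPBCD against vehicle, mt-Nd1 in peri-infarct (11.9% against 12.9%) and mt-Nd2 in contralateral tissue (11.9% against 11.1%) did not overlap. A ratio within a library shows that its genes changed unequally, not which of them changed.

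**Figure D5:**
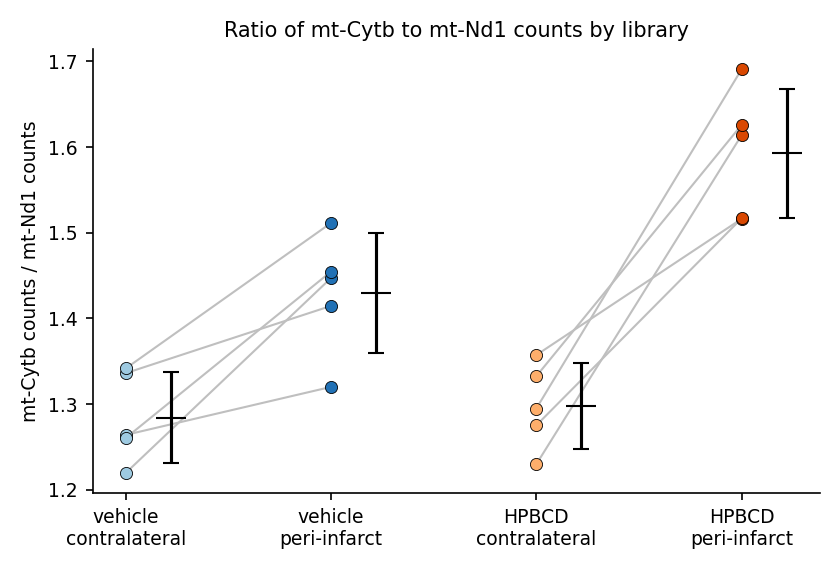
Ratio of mt-Cytb to mt-Nd1 counts in each library by group (points), with mean and SD of 5 libraries and grey lines joining libraries of the same animal (the vertical axis does not start at 0). Every line rises from contralateral to peri-infarct, and the HPBCD peri-infarct libraries, at 1.52 to 1.69, lie above all others.

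Between treatments no member was called by edgeR. In peri-infarct tissue, 21.4% of 16224 genes tested were called. When 1 library was left out, that share ranged from 5.03% (HPBCD peri-infarct replicate 3 left out) to 32.5% (replicate 2 of the same group), and no member was called in any of these 10 fits. The 10 well counted rRNA and protein-coding members had log2 fold changes of -0.21 to 0.04, HPBCD against vehicle as labelled, and adjusted p of at least 0.503. The lowest of them was mt-Nd1, at 10227 ± 2274 against 11780 ± 2916 CPM (SD, n = 5), with a log2 fold change of -0.21 and a 95% interval of -0.70 to 0.28. For mt-Co1 the log2 fold change was -0.15 (95% interval -0.68 to 0.38), for mt-Cytb -0.04 (-0.56 to 0.47) and for mt-Rnr1 -0.02 (-0.44 to 0.40). Each of these intervals includes 0, which does not show that the levels were equal. Leaving out 1 library moved mt-Nd1 between -0.34 and -0.10, mt-Co1 between -0.30 and -0.03, mt-Cytb between -0.20 and 0.08 and mt-Rnr1 between -0.14 and 0.10, with the lowest value of each without HPBCD peri-infarct replicate 4. The highest came without vehicle peri-infarct replicate 3, and for mt-Rnr1 without HPBCD peri-infarct replicate 1. At an unadjusted p under 0.05 stood 1 member, mt-Atp6, one of the genes near 0, with 26, 7, 34, 11 and 66 counts in vehicle and 16, 3, 4, 16 and 2 counts in HPBCD peri-infarct replicates (log2 fold change -1.87, SE 0.68, adjusted p = 0.0697). DESeq2 called it lower. Its nuclear copy Gm10925 was at 353 ± 88.7 against 372 ± 113 CPM (SD, n = 5).

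In contralateral tissue, 0.0% of 15469 genes tested were called, no member was among those at an unadjusted p under 0.05, and the limma voom and DESeq2 fits called 0 members as well. The log2 fold changes of the 10 well counted members were -0.06 to 0.30, the highest for mt-Rnr1 at 8293 ± 2182 against 6683 ± 1166 CPM (SD, n = 5). The library that stands apart is the highest of the HPBCD contralateral group in both rRNAs, and rRNA made up 16.6% of its member counts against at most 12.7% in the other libraries of that group. Without it the log2 fold change of mt-Rnr1 was 0.20, and without HPBCD contralateral replicate 2 it was 0.43.

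The interaction, which tests whether the difference between regions itself differed between treatments, called 9.41% of 16758 genes and 0 of the 17 members tested. The share of all genes ranged from 3.12% without vehicle peri-infarct replicate 2 to 18.4% without HPBCD peri-infarct replicate 2 when 1 library was left out, with 0 members called in each of these 20 fits. No member was at an unadjusted p under 0.05, and DESeq2 and limma voom also called 0. The log2 values of the interaction were -0.34 for mt-Rnr2 and -0.32 for mt-Rnr1, the lowest of the 10 well counted rRNA and protein-coding members, and -0.17 to 0.09 for the 8 protein-coding members. For mt-Rnr1 it was -0.46 without HPBCD contralateral replicate 2 and -0.19 with HPBCD peri-infarct replicate 1 left out. The 6 calls in HPBCD and the 1 call in vehicle are therefore not shown to reflect a different size of change.

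Nuclear genes that work with the members were counted for comparison. Of 75 nuclear subunits of the oxidative phosphorylation complexes found in the tables, 60 fell and 0 rose in vehicle peri-infarct tissue, with a median log2 fold change of -0.39, and 63 fell and 0 rose in HPBCD, with a median of -0.50, beside 9.7% and 24.3% of all genes called lower. The lowest called values were Cox7b of complex IV in vehicle (-0.59, adjusted p = 0.00240) and Ndufa4 in HPBCD (-0.80, adjusted p = 7.16e-05). All 11 listed nuclear subunits of complex IV, the complex of mt-Co1, fell in both treatments. In vehicle and in HPBCD, 30 and 29 of 36 nuclear subunits fell for complex I, 1 and 2 of 4 for complex II, 7 and 8 of 9 for complex III, and 11 and 13 of 15 for complex V, and differences between complexes were not tested. Between treatments in peri-infarct tissue, 6 of the 75 were called, all lower in HPBCD as labelled, beside 9.0% of all genes called lower (1.41% without HPBCD peri-infarct replicate 3 to 16.3% without replicate 2 of that group), with Cox5a at the largest fall (-0.40, adjusted p = 0.0138).

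Of 77 tested mitochondrial ribosomal proteins, which build the ribosome around both rRNAs, 35 fell in vehicle and 45 fell in HPBCD peri-infarct tissue, while 0 and 2 rose, beside the same 9.7% and 24.3% of all genes called lower. The largest falls were Mrpl34 in vehicle (-0.53, adjusted p = 0.0172) and Mrpl58 in HPBCD (-0.87, adjusted p = 2.12e-05), and the larger rise was Mrpl24 in HPBCD (0.28, adjusted p = 0.0199). Of 18 tested factors that process or stabilise mitochondrial RNA, 2 fell in vehicle and 7 fell in HPBCD and 0 rose, with medians of -0.11 and -0.21, so the vehicle count is near the background. Of 10 factors of mitochondrial transcription, 0 were called in vehicle and 1 fell in HPBCD, and of 8 factors of mitochondrial DNA replication, 0 were called in vehicle and 2 rose in HPBCD. For the rises, 4859 of all 16047 genes tested were called higher in HPBCD. Differences between these lists were not tested. Of the called factors Slirp, which stabilises mitochondrial mRNA, was lowest in vehicle (-0.53, adjusted p = 0.0212). In HPBCD Ptcd2 was lowest (-0.55, adjusted p = 4.54e-04) and Twnk, the helicase of mitochondrial DNA replication, was highest (0.28, adjusted p = 0.0402). Between treatments in peri-infarct tissue, 3 of the 77 ribosomal proteins and 1 of the 36 factors were called lower, beside 9.0% of all genes. The largest falls were Mrpl58 (-0.34, adjusted p = 0.0400) and Elac2, which cuts the ends of mitochondrial tRNAs (-0.31, adjusted p = 0.0432). The interaction called 1 mitochondrial ribosomal protein, Mrpl3 (-0.41, adjusted p = 0.0369), and no listed nuclear oxidative phosphorylation subunit or factor of mitochondrial transcription, replication or RNA processing. Of 8 regulators of mitochondrial biogenesis, 3 fell and 1 rose in each region comparison. In peri-infarct tissue 1 was called higher in HPBCD than in vehicle as labelled, and 1 was called in the interaction. Of 13 markers of mitochondrial mass and protein import, 5 fell in vehicle and 7 in HPBCD peri-infarct tissue, 4 were called lower in HPBCD than in vehicle peri-infarct tissue as labelled, 0 were called higher in these comparisons, and 0 were called in the interaction.

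The annotated nuclear copies followed the members in sign between regions. All 10 copies with at least 95% identity over at least 200 bases, 7 on chromosome 1 and 3 on chromosome 2, had negative log2 fold changes in both region comparisons. In vehicle 2 were called, Gm13340 (-1.30, adjusted p = 0.0262) and Gm13341 (-0.60, adjusted p = 0.0303), beside the 9.7% of all genes called lower there. In HPBCD 3 were called, Gm13339 (-0.78, adjusted p = 0.0392), Gm13340 (-1.10, adjusted p = 0.00416) and Gm10925 (-0.72, adjusted p = 0.0124), beside 24.3% of all genes. Reads of the members and of these copies cannot be told apart where the sequence is shared.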

How the data were processed

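RNA of 20 libraries was sequenced by the authors as 75-base read pairs from stranded mRNA libraries. Per the labels and the submitters' processing notes, they used bcl2fastq 2.19, Trimmomatic 0.32, STAR 2.5.2b (GRCm38) and HTSeq. The deposited values are raw counts of read pairs per gene, without normalization. Strand option and annotation release are not given in the sources used here. Library sizes exclude the 5 closing lines of each table, which hold the pairs without a feature, ambiguous or not uniquely aligned. Symbols, coordinates and transcript sequences came from GENCODE M21 (98.2% of gene identifiers matched, and 37 of 37 members). Members of the annotation were compared with all other annotated transcripts for identical 75-base stretches.

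The counts of all genes were compared in edgeR 4.0.16 (R 4.3.3) by its quasi-likelihood F test, using TMM factors and filterByExpr, with Benjamini-Hochberg adjustment and a threshold of 0.05. Each comparison used its 10 libraries and the interaction all 20. The SE is the size of the log2 fold change divided by the square root of F, and 95% intervals use the t distribution with the degrees of freedom of the fit. The test was first run on simulated data. Libraries of a group were read as separate animals from identifiers in the names of the deposited tables, and p-values measure the spread between these libraries. A count of 3 was taken as the floor, and floors cover counting error only. Alternatives were DESeq2 1.42.0, limma 3.58.1 voom, other scaling factors and filters, a replicate block, all groups in 1 fit and leaving out each library. The members and lists were chosen with earlier results of these data known. Named were all protein-coding and rRNA members, the tRNA members past the filter with the highest mean counts, the nuclear copies with at least 95% identity over at least 200 bases that passed the filter, and, in each nuclear list and comparison, the called genes with the largest rise and fall at a mean of at least 5 CPM. Deviations of same-numbered libraries from their group means correlated with a mean r of 0.0876 over 10 pairs, so the pairing of regions rests on the shared identifier.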

Additional observations from a re-analysis of the deposited data

Results flagged for a closer look

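In 104 sets of 5 libraries (mitochondrial share, read assignment, the well counted members, mt-Tp, the mt-Cytb to mt-Nd1 ratio and the nuclear copies), 7 held a library whose gap to the nearest other library was more than 0.71 of the range, where chance gives about 1 in 20. None was a member or the mitochondrial share. In HPBCD contralateral replicate 4, pairs without a feature were 9.50% against 4.39% to 5.86% in the other libraries of its group, and ambiguous pairs were 8.03% against 3.98% to 4.12%. Ambiguous pairs were 4.02% in vehicle peri-infarct replicate 2 against 4.08% to 4.10%. Among the nuclear copies, Gm10925 was at 974.5 CPM in vehicle contralateral replicate 2 against 465 to 558 CPM, and Gm10222 at 56.6 CPM in vehicle contralateral replicate 1 against 8.97 to 12.1 CPM. Gm28661 was at 60.8 CPM in vehicle peri-infarct replicate 2 against 80.7 to 86.7 CPM, and Gm29216 at 237.8 CPM in HPBCD peri-infarct replicate 4 against 63.7 to 95.2 CPM.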

How the results depend on the processing

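The negative direction of the well counted members between regions was kept in all alternatives run, but the number of calls was not. In vehicle, members called (all lower) were 1 by edgeR with TMM factors, 6 by DESeq2, 9 by limma voom, 5 with the replicate block and 2 with all 4 groups in 1 fit, beside 9.7%, 10.3%, 14.9%, 9.1% and 7.94% of all genes with an adjusted p called lower. They were 0 to 3 when single libraries were left out, beside 5.26% to 11.2% of all genes called lower. In HPBCD they were 6, against 10 by DESeq2, 11 by limma voom and 11 without a filter on low counts, beside 24.3%, 19.6%, 27.5% and 16.1% of all genes. They were 6 to 12 when single libraries were left out, with 12 reached without HPBCD peri-infarct replicate 4, beside 22.1% to 26.9% of all genes called lower. The replicate block changed no other count of calls by over 1.5 times. In the comparisons of treatments it joined different animals with the same replicate number, so it is no pairing there. The cause of these differences was not tested. DESeq2 called 1 member, mt-Atp6, a gene near 0, between treatments in peri-infarct tissue. By edgeR, 9.0% of all genes were called lower in that comparison. In the comparison of treatments in peri-infarct tissue, in contralateral tissue and in the interaction, the sign of an uncalled member changed in 6 of 99, 4 of 99 and 8 of 88 values (11 members in each alternative) and, when 1 library was left out, in 29 of 110, 21 of 110 and 19 of 220 values, at values of at most 0.134 and never with a call, and such changes were not counted as reversals. The contralateral difference in mitochondrial share between treatments, 0.23 points, was -0.13 points over all read pairs and -0.04 points for the protein-coding genes alone. The depth of 14445021 to 22171627 gene counts did not limit the well counted members, but 4 of the 5 protein-coding genes near 0 and 16 of the 22 tRNA genes passed the filter on low counts in no comparison.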
